A study of Mus musculus with 2 samples.

Results

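The interleukin-10 cytokine system was followed in classically activated mouse macrophages with and without Ninj1, through the 4 of 17270 genes in the deposited table whose symbols are Il10, Il19, Il10ra and Il10rb. The members are a pair of cytokines, interleukin-10 and interleukin-19, and both chains of the interleukin-10 receptor. They were chosen by name, by a rule that uses no measured value, although earlier results of these data were known when the group was chosen. Bone marrow cells came from Ninj1+/+ (wild-type) and Ninj1-/- (knockout) mice aged 6 weeks. Cells of both genotypes were held in culture for 16 hours and grown into macrophages over 7 days with macrophage colony-stimulating factor (M-CSF), whose dose the labels give both as 20 and as 30 ng/ml. Both were then activated with 500 ng/ml lipopolysaccharide (LPS) plus 20 ng/ml of interferon-gamma, so no unstimulated cells were available for comparison and the knockout is of the whole animal. Directional mRNA libraries were sequenced. GEO lists 1 sample per genotype, whereas the table has 2 columns per genotype, and whether these are separate mice, cultures or libraries is not stated. The p-values below therefore measure only the spread between columns, which may be technical.

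Interleukin-10 is the main cytokine by which macrophages limit their own inflammatory response. It binds a receptor made of a ligand-binding chain, Il10ra, and a shared chain, Il10rb, which carry the kinases Jak1 and Tyk2, activate the transcription factor Stat3 and restrain the transcription of inflammatory cytokines. Il10rb also serves the receptors for interleukin-22 and interferon-lambda, while interleukin-19 belongs to the same cytokine family but signals through a different receptor, made of Il20ra and Il20rb. In activated macrophages Il10 is induced by Toll-like receptors such as the LPS receptor, and interferon-gamma is known to dampen that induction.

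Positions are those of the GENCODE M21 annotation on GRCm38, the assembly also called mm10. Il10 (Entrez 16153) lies on the plus strand of chromosome 1 at 131019845 to 131024974, and its 1 annotated transcript has 5 exons. Il19 (Entrez 329244) lies on the minus strand of the same chromosome at 130932656 to 130940115. The start sites of both genes lie at their adjacent ends, 79.7 kb apart, and transcription runs away from the space between them. Il10ra (Entrez 16154) is at 45253837 to 45269149 on chromosome 9, minus strand, and Il10rb (Entrez 16155) at 91406164 to 91425834 on chromosome 16, plus strand. Il10rb shares 13288 bases with Gm21970, a coding gene annotated on the same strand and not analysed here, so reads of the overlap may have been counted for Il10rb. Il10ra overlaps a pseudogene on the opposite strand and a microRNA gene, neither analysed here, and the strand setting of the counting is not given.

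Sequence features of the members were read from the reference. The RefSeq promoter table for GRCm38.p6 matched 1 of the 4 members, Il19, whose 250 bases upstream of the start site (chr1:130940116-130940365, minus strand) are shown because LPS acts on cytokine genes through the transcription factor NF-kB. Capitals mark the match to the NF-kB consensus.
Il19 promoter: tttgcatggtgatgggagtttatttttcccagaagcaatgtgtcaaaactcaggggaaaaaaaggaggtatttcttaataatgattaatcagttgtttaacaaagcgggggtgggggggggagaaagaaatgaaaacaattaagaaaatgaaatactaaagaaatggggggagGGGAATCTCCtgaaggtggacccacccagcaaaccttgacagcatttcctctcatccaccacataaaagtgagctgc
The match begins 77 bases upstream of the start. Searched on both strands, the NF-kB consensus occurred in 3.90% of 32851 upstream windows of the same length. The STAT-binding element TTCNNNGAA was found once, from 225 bases upstream, and occurred in 7.02% of windows. No match was found for the AP-1 motif TGANTCA, the cyclic AMP response element TGACGTCA or the TATA box TATAAA, which occurred in 6.75%, 1.55% and 12.4% of windows. These matches describe the letters and do not show that a factor binds there.

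Cytokine mRNAs are often short-lived because proteins such as tristetraprolin, encoded by Zfp36, bind AU-rich elements in their 3′ untranslated regions. On the transcript's own strand and with overlapping matches counted, the pentamer ATTTA occurred 6 times in the 706 bases of the Il10 3′ region, 4 times in the 711 bases of Il10rb, 3 times in the 1693 bases of Il10ra and 1 time in the 492 bases of Il19. Per kb this is 8.50 for Il10, a density that 1.54% of 19744 coding genes reached or passed. The corresponding share was 5.52% for Il10rb at 5.63 per kb, 36.8% for Il19 at 2.03 per kb and 41.6% for Il10ra at 1.77 per kb. The 30-base stretches with the most pentamers are shown for Il10 and Il10ra because their layouts differ, with each ATTTA in capitals.
Il10 3′ stretch: cctcgtttgtacctctctccgaaatATTTA
Il10ra 3′ stretch: cctttATTTATTTAtttgctcacttATTTA
The pentamers of Il10 were spread out, with no more than 1 in a stretch of that length, whereas all 3 of Il10ra fell within the stretch shown.

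None of the 4 members passed the test for a difference between knockout and wild type. Il10 stood at 96.5% of its wild-type mean in the knockout, Il10ra at 95.1%, Il10rb at 108% and Il19 at 65.0%. The test was limma on log2(normalized count + 1), where a normalized count is the authors' read count divided by a size factor for the column, and p-values were adjusted over the 12872 genes reaching 20 reads in any column. All 4 members passed that minimum in every column. Of all genes tested, 375 were called (2.91%) at an adjusted p below 0.05, and 0 of the 4 members were. These were 215 higher and 160 lower in the knockout, against 318 and 97 once trends with GC content and length were removed. In this fit none of the members had an unadjusted limma p under 0.05, against 19.8% of all genes. Among the alternatives that used all 4 columns, Il19 and Il10rb did with the GC and length trends removed. With a block on the column number Il19 did as well. None of these gave a call. EdgeR called none of the 4 and DESeq2 neither of the 2 to which it gave an adjusted p. The missing calls do not show that the levels were equal, and the intervals of the differences are given below. In bulk RNA, fewer cells of a type and less RNA per cell cannot be told apart.

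Il10, which encodes the ligand, held 941 and 772 normalized counts in the wild-type columns 1 and 2, and 785 and 867 in the knockout columns 1 and 2. Both knockout columns lay between the wild-type columns. Wild type averaged 857 ± 119 and the knockout 826 ± 57.9 (SDs over the 2 columns of a genotype). The log2 ratio of knockout to wild type was -0.047 (SE 0.13, limma adjusted p = 0.878), with a 95% interval from -0.32 to 0.22. In folds the interval runs from 0.803 to 1.17, so a change of 2-fold lies outside it in either direction. These values rest on 546 to 623 reads a column. The sign was not stable, with log2 ratios of 0.096 without wild-type column 1, -0.19 without wild-type column 2, 0.025 without knockout column 1 and -0.12 without knockout column 2.

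Il19, the other cytokine, was the lowest member and the one whose log2 ratio lay furthest from 0. It held 130 and 236 normalized counts in the wild-type columns 1 and 2, and 95.8 and 142 in the knockout columns 1 and 2. Wild-type column 2 stood above the other 3 columns, and wild-type column 1 lay between the knockout columns, so the genotypes overlapped. Its log2 ratio was -0.58 (SE 0.30, limma adjusted p = 0.305), and the 95% interval from -1.23 to 0.065 spans folds of 0.427 to 1.05. The 76 to 167 reads behind each column leave wide counting errors. Allowing 2 reads per fragment, the 95% Poisson intervals were 92.7 to 177 and 188 to 293 normalized counts for the wild-type columns, which do not overlap, and 67.8 to 132 and 104 to 189 for the knockout columns, which do. Such intervals cover counting error only. The wild-type columns differed 1.82-fold from each other and the knockout columns 1.48-fold. The ratio moved with single columns, being -0.15 without wild-type column 2, -0.30 without knockout column 1, -0.86 without knockout column 2 and -1.01 without wild-type column 1. Without that last column the limma adjusted p was 0.234, so no call was made in any of these cases.

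**Figure D1:**
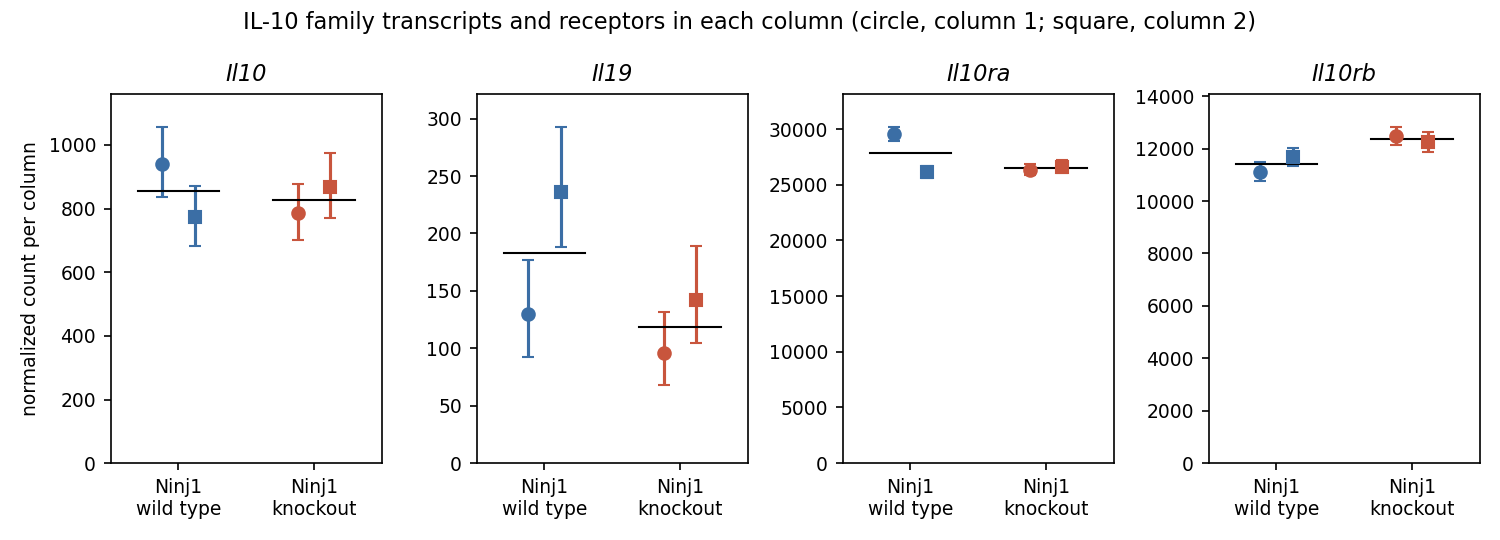
Normalized count (y axis, linear from 0) of each member in the 2 wild-type (blue) and 2 knockout (red) columns; circles are column 1, squares column 2, error bars the 95% Poisson counting interval at 2 reads per fragment and black lines the genotype means. Genotypes overlap for Il10, Il19 and Il10ra, while both knockout columns of Il10rb (12469 and 12238) lie above both wild-type columns (11117 and 11677).

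Il10ra, the ligand-binding chain, held 29560 and 26127 normalized counts in the wild-type columns 1 and 2, and 26334 and 26616 in the knockout columns 1 and 2. Wild-type column 1 was the highest and wild-type column 2 the lowest, with both knockout columns between them. The log2 ratio was -0.070 (SE 0.074, limma adjusted p = 0.642), with a 95% interval from -0.23 to 0.088, or folds of 0.854 to 1.06. Leaving out wild-type column 1 gave 0.019, and leaving out wild-type column 2 gave -0.16. With each column's trend with GC content and transcript length removed it was 0.036, so that its sign is not settled by these columns.

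Il10rb, the shared signalling chain, held 11117 and 11677 normalized counts in the wild-type columns 1 and 2, and 12469 and 12238 in the knockout columns 1 and 2. It was the 1 member whose genotypes did not overlap, a pattern found in 51.1% of all genes tested, and 25.5% had both knockout columns on the higher side as here. Its log2 ratio of 0.12 (SE 0.067, limma adjusted p = 0.358) had a 95% interval from -0.027 to 0.26, which in folds is 0.981 to 1.20. Leaving out single columns kept the ratio between 0.081 and 0.15.

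**Figure D2:**
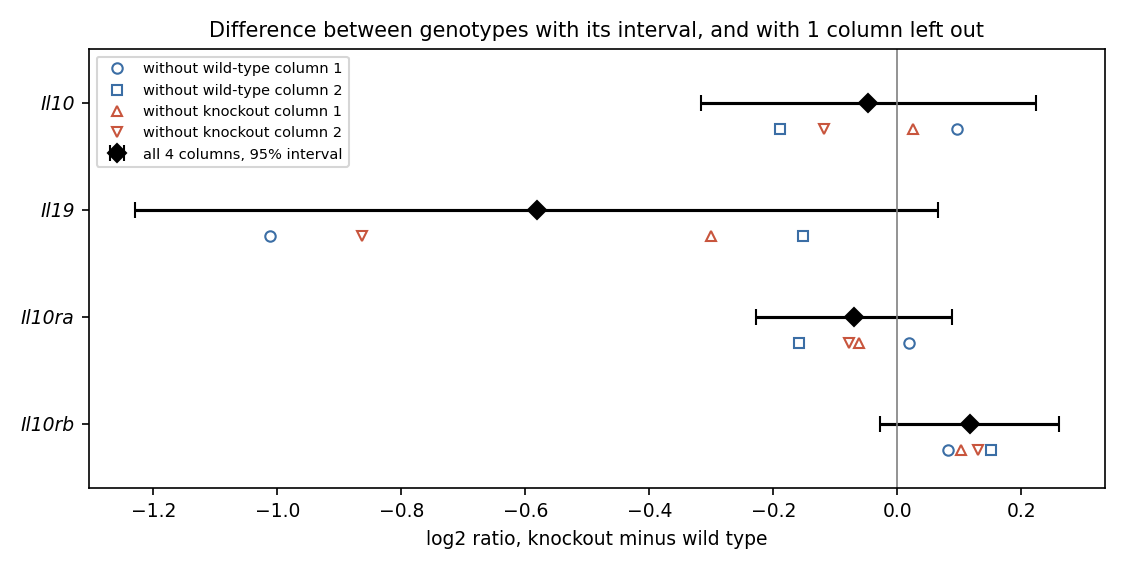
Log2 ratio of knockout to wild type (x axis) for each member, with black diamonds and bars for the limma estimate from all 4 columns and its 95% interval, and open symbols for the estimates with 1 column left out. All 4 intervals include 0, and the interval of Il19 (-1.23 to 0.065) is the widest.

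Because the receptor needs both chains, their ratio was taken within each column. Normalized counts of Il10ra were 2.66 and 2.24 times those of Il10rb in the wild-type columns and 2.11 and 2.17 times in the knockout columns. Both knockout ratios lay below both wild-type ratios, by 0.19 on the log2 scale, and the exact two-sided permutation test over columns gave p = 0.333, the smallest value that 2 columns against 2 can give. Il10 exceeded Il19 in normalized counts 7.25 and 3.27 times in the wild-type columns and 8.20 and 6.11 times in the knockout columns, and here the genotypes overlapped (log2 difference 0.54, exact permutation p = 0.667). These are ratios of counts, not corrected for transcript length.

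Levels of different genes were set side by side per kb of the longest annotated transcript, which has 1310 bases for Il10, 1135 for Il19, 3498 for Il10ra and 2791 for Il10rb. Over the 4 columns the receptor chains were the most abundant members, with 7764 ± 461 normalized counts per kb for Il10ra and 4255 ± 217 for Il10rb (SD over columns). Il10 followed with 642 ± 60.0 and Il19 with 133 ± 52.9 normalized counts per kb. The ranges over columns of neighbouring members in this order did not overlap, the nearest being the lowest Il10ra column at 7469 and the highest Il10rb column at 4468. The longest transcript of Il10rb is annotated as subject to nonsense-mediated decay. With the 1850 bases of its longest coding transcript its columns ran from 6009 to 6740 normalized counts per kb, still below every Il10ra column. Among 11980 genes with a length, mean normalized count per kb placed Il10ra at percentile 95.1, Il10rb at 90.9, Il10 at 58.1 and Il19 at 27.9.

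The other chains of the class II cytokine receptor family, to which both interleukin-10 receptor chains belong, gave no calls. Of 9 listed, 7 were in the table and 5 were tested, and limma and edgeR each called 0, none had an unadjusted limma p under 0.05, and DESeq2 called none of the 4 it gave an adjusted p. Limma called 2.91% of all genes tested, so 0 of 5 is near that share, and 19.8% had an unadjusted limma p under 0.05. The median log2 ratio of the 5 chains was 0.027, beside -0.0034 over all genes tested. The interferon-gamma receptor chain Ifngr2 stood at 5228 normalized counts per kb, the type I interferon receptor chains Ifnar1 and Ifnar2 at 4419 and 3253, and Ifngr1, the ligand-binding chain for interferon-gamma, at 1118. By the same measure Il10ra was the highest chain of the family in every column. Ifnar2, Ifnar1 and Ifngr2 neighbour Il10rb on chromosome 16, and their log2 ratios were -0.067, 0.027 and 0.050.

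Few reads came from the partner chains and ligands of the wider family. Il20rb, which pairs with Il20ra to bind interleukin-19, held 219 and 287 normalized counts in wild type and 235 and 311 in the knockout, from 135 to 206 reads, and did not pass (log2 ratio 0.11, limma adjusted p = 0.821). Ifnlr1, which pairs with Il10rb to bind interferon-lambda, had 0 and 2 reads in wild type and 8 and 2 in the knockout. Il22ra2, a soluble decoy for interleukin-22, had 0 and 4 reads in wild type and 0 in both knockout columns. Of the other ligands of the family only Il22 was in the table, with 1 read in knockout column 1 and 0 in the other columns. Il20ra, Il22ra1, Il20 and Il24 were not analysed here.

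**Figure D3:**
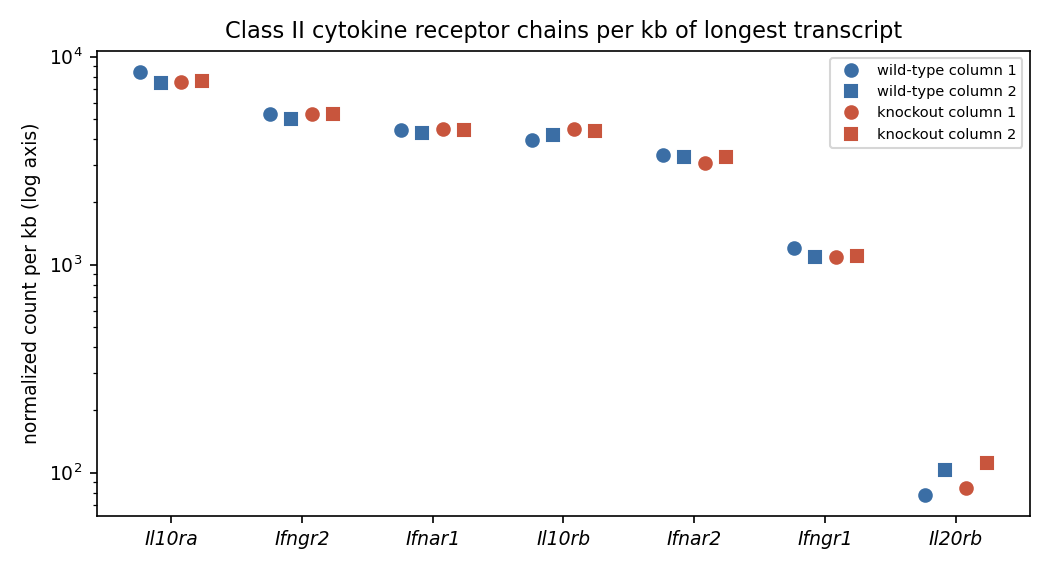
Normalized count per kb of the longest annotated transcript (y axis, log scale) for the class II cytokine receptor chains with more than 10 per kb; blue is wild type, red knockout, circles column 1 and squares column 2. Il10ra is highest (7469 to 8451), Il10rb by this length lies with the interferon receptor chains (3983 to 4468) and Il20rb is lowest (78.4 to 112). Per kb of its longest coding transcript Il10rb would run from 6009 to 6740, above every interferon receptor chain (Ifngr2 at most 5319).

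Downstream of the receptor, none of the 7 listed kinases, transcription factors and inhibitors was called by limma, edgeR or DESeq2. None had an unadjusted limma p under 0.05, and by DESeq2 1 did. Over all genes limma called 2.91%, so 0 of 7 is near that share, and 19.8% had an unadjusted limma p under 0.05. The median log2 ratio of the 7 was -0.038. The kinases Jak1 and Tyk2 had log2 ratios of -0.014 and -0.015. Stat3, the main transcription factor of the pathway, went from 54178 ± 3600 to 48735 ± 1074 normalized counts (log2 ratio -0.15, limma adjusted p = 0.276), and its feedback inhibitor Socs3 from 45929 ± 3176 to 41817 ± 2431 (-0.13, adjusted p = 0.352; SDs are over 2 columns).

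Genes that interleukin-10 is known to raise in macrophages were mostly not called. Of 11 tested of 12 listed, 1 fell by limma, 0 rose and 10 did not pass (by limma, lower calls were 1.24% of all genes and higher calls 1.67%). DESeq2 called 2 lower of the 10 to which it gave an adjusted p. Of the 11 ratios 9 were below 0, with a median of -0.070. The gene that fell by limma was Il4ra, the interleukin-4 receptor chain, which held 31657 and 27874 normalized counts in wild type and 22072 and 24771 in the knockout (log2 ratio -0.35, SE 0.081, limma adjusted p = 0.0381). Sbno2, a corepressor induced through Stat3, held 27422 and 24165 against 20007 and 21832 and narrowly missed (-0.30, adjusted p = 0.0526). The coactivator Bcl3 had a log2 ratio of -0.14 and Zfp36 of 0.059. Il4ra was not called when wild-type column 1 or either knockout column was left out, without a filter on low values, or after removal of the trends with GC and length, and the number of genes called lower in this list ranged from 0 to 2 over the alternatives.

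Among genes that interleukin-10 is known to restrain, 22 were listed and 21 tested. In the knockout 9 of them rose by limma, 10 by edgeR and 11 by DESeq2, which gave an adjusted p to 18 of the 21. Over all genes DESeq2 called 348 higher, beside 215 by limma. By limma 0 fell, leaving 12 that missed the threshold, where higher calls made up 1.67% of all genes. The list's median log2 ratio was 0.30, beside -0.0034 over all genes. The list was assembled with earlier results of these data known, so it gives no independent evidence of a direction. The 9 were the chemokines Cxcl1 (log2 ratio 1.11), Cxcl2 (0.63) and Ccl3 (0.61), the cytokines Il1a (0.76), Il12b (0.53) and Il6 (0.50), and the class II antigen presentation genes H2-Eb1 (0.53), H2-Aa (0.49) and H2-Ab1 (0.32), with limma adjusted p-values from 0.00350 to 0.0333. Among genes of the list that did not pass, Il23a, a chain of interleukin-23 measured at 55.2 and 45.3 normalized counts in wild type and 34.0 and 30.2 in the knockout, had the lowest ratio (-0.62, adjusted p = 0.465). The enzyme gene Ptgs2 (0.37, adjusted p = 0.0833) and the costimulatory gene Cd80 (0.30, adjusted p = 0.132) also missed. Without wild-type column 1 the count of genes called higher was 2, and without knockout column 1 it was 3. Of these 9 genes only Cxcl2 kept its call in all 13 alternatives. Markers of dendritic cells, which also carry class II molecules, summed to 50532 and 41342 normalized counts in the wild-type columns 1 and 2. In the knockout columns they summed to 57751 and 69374. Most of each sum was Ccl22, at 40794 and 32385 in wild type and 44292 and 55467 in the knockout. Of the 8 markers, 3 were called higher (Xcr1, Ccr7 and Ccl22), and Cd209a and Siglech were at 0 in every column. Clec9a was not called (log2 ratio 0.18, limma adjusted p = 0.627). Flt3 and Zbtb46, defining genes of the lineage, had at most 12 reads in a column. Their part in the class II result was not tested.

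**Figure D4:**
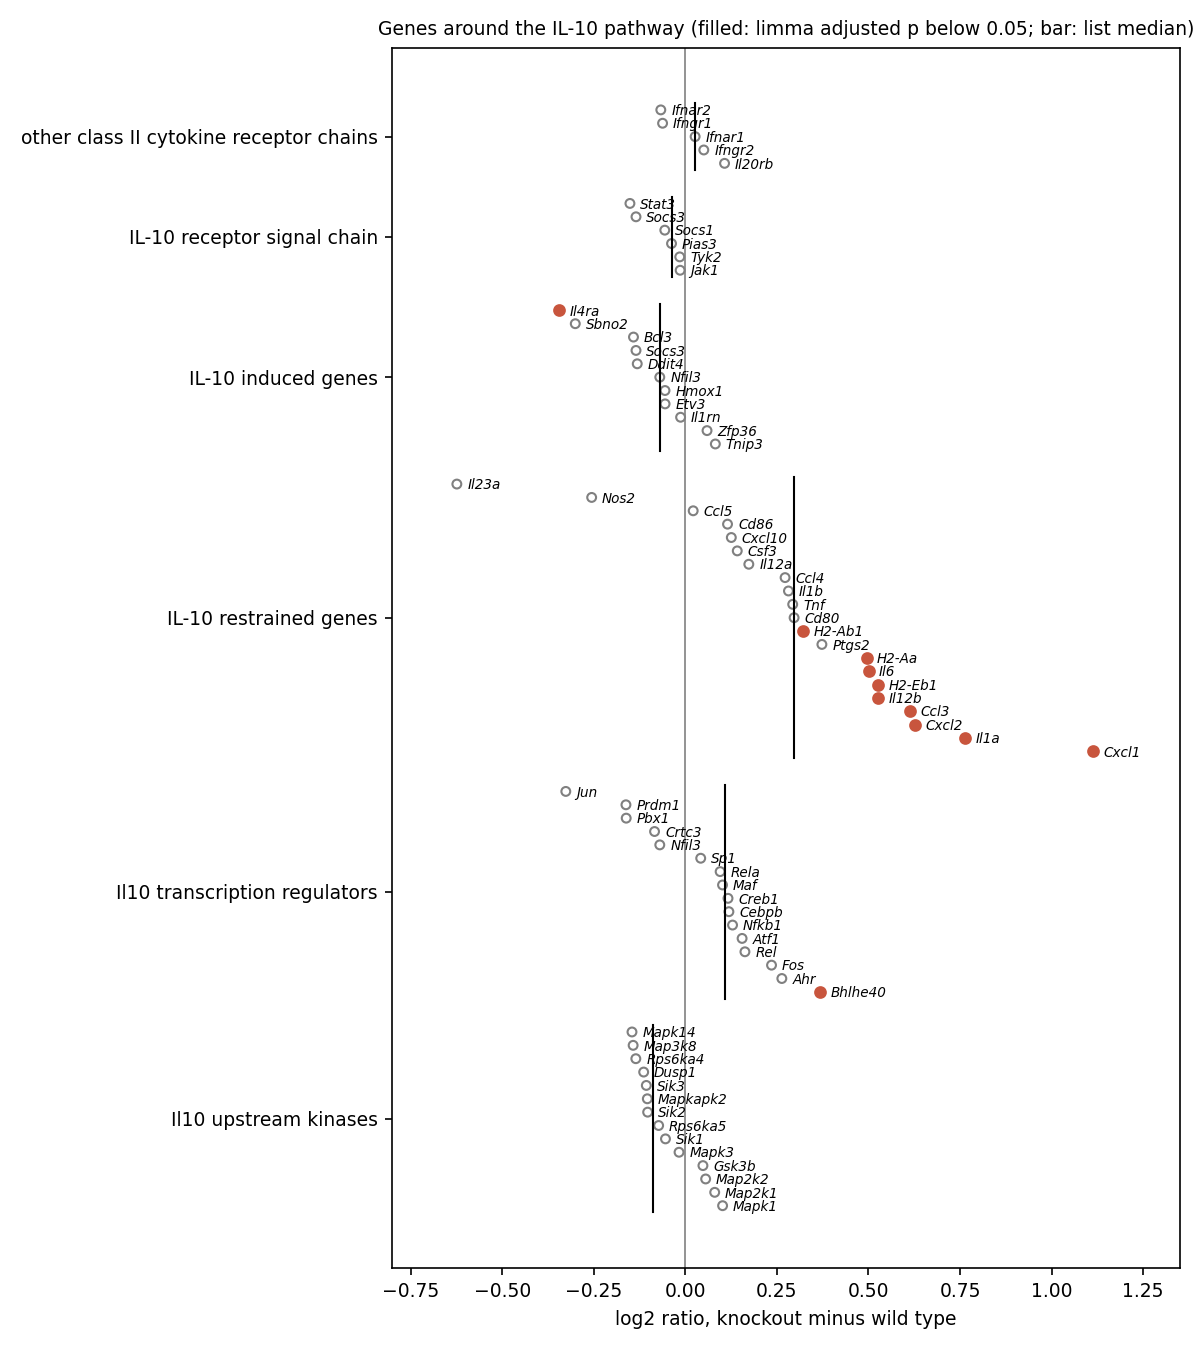
Log2 ratio of knockout to wild type (x axis) for tested genes of 6 lists around the interleukin-10 pathway, with genes not reported here left out of the drawing; filled red points passed limma at an adjusted p below 0.05 and black bars are medians over all tested genes of a list. The 9 called genes of the restrained list lie between 0.32 and 1.11, Il4ra at -0.35 and Bhlhe40 at 0.37, and no gene of the other 3 lists was called.

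Regulators of Il10 transcription were followed as well. Of 16 transcription factors and cofactors, limma and edgeR each called 1 higher and 0 lower, where higher calls by limma made up 1.67% of all genes and lower calls 1.24%. DESeq2 called 2 higher and 1 lower of the 15 to which it gave an adjusted p. The list's median log2 ratio was 0.11. The gene that rose by limma was Bhlhe40, a repressor of Il10 transcription, at 3190 and 2932 normalized counts in wild type and 3694 and 4222 in the knockout (log2 ratio 0.37, SE 0.086, limma adjusted p = 0.0386). It lost its call without any 1 of the 4 columns and without a filter on low values. Maf, a direct activator of Il10 in macrophages, had a log2 ratio of 0.10 (adjusted p = 0.452). The log2 ratios furthest from 0 that did not pass limma were those of Jun (-0.33, adjusted p = 0.0590), Ahr (0.26, adjusted p = 0.199) and Fos (0.24, adjusted p = 0.0873). Jun was called by DESeq2 and with the replicate block. Of 14 genes for signalling kinases and a phosphatase upstream of Il10, limma and edgeR called 0. DESeq2 also called 0 of the 12 to which it gave an adjusted p. None of the 14 had an unadjusted limma p under 0.05. Their median log2 ratio was -0.088, with ratios from -0.15 to 0.10. Mapk14, the p38 kinase, and Map3k8, the kinase that links Toll-like receptors to ERK, had log2 ratios of -0.15 and -0.14, and Rps6ka4, a kinase that p38 activates, had -0.14. None of these 3 passed (limma adjusted p from 0.282 to 0.352). Limma called 2.91% of all genes, so 0 of 14 is near that share, and 19.8% of all genes had an unadjusted limma p under 0.05.

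Genes starting within 250 kb of a member were examined by position. Around Il10, 5 neighbours were tested and 0 were called, with log2 ratios from -0.58 for Il19 to -0.10 for the kinase gene Mapkapk2. Limma called 0 of 7 neighbours of Il19, 0 of 3 of Il10ra and 0 of 8 of Il10rb, beside 2.91% of all genes. Likeness of pattern was measured as the Euclidean distance between log2 values centred on each gene's mean, over the 4 columns and 10350 other genes averaging at least 100 reads. The closest were Nfat5, Slc25a16 and E2f5 for Il10 (distances 0.011 to 0.016), Gnaq, Trmt1 and Helz for Il10ra (0.0065 to 0.013) and Dync1i2, Clpx and Naa35 for Il10rb (0.0081 to 0.012). No gene came as close to Il19, for which Gm5150, 4933439K11Rik and Siglece lay at 0.30 to 0.36. With 4 columns such closeness is a description only.

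The columns held 46798381 to 62684262 reads assigned to genes, and 1 read was worth 1.26 to 1.62 normalized counts. Ninj1, the targeted gene, fell to 12.7% of wild type (30004 ± 1632 against 3802 ± 401 normalized counts; SD, n = 2 columns; limma adjusted p = 1.80e-11). Macrophage markers were abundant in every column, and Mertk fell (log2 ratio -0.48). B cells, T cells and mast cells also make interleukin-10. Of 6, 7 and 7 listed markers of these cells, only 5, 5 and 2 were in the table. Those in the table summed to at most 48.4, 62.2 and 166 normalized counts in any column. All 5 B cell markers in the table stayed under 20 reads. Of the T cell markers Cd3d and Cd8a were at 0 throughout, while Foxp3 had 5 or 6 reads a column and Trac 2 to 4. Cd4 had 10 and 36 reads in wild type and 12 and 22 in the knockout, and was not called (limma adjusted p = 0.817). Of the mast cell sum most was Kit, at 102 to 161 normalized counts, while Cpa3 had at most 4 reads. Of 8 listed neutrophil markers 4 were in the table, and these summed to at most 122 normalized counts. The 8 stromal markers summed to 699 and 772 in the wild-type columns and 456 and 366 in the knockout columns. Limma called Col1a1 and Col1a2 lower (log2 ratios -5.25 and -6.91), where lower calls were 1.24% of all genes. Col1a1 had 92 and 96 reads in wild type and 2 in each knockout column. Col1a2 had 60 and 103 reads in wild type and 0 in each knockout column. Col3a1, Dcn and Pdgfrb had log2 ratios below 0 (-4.89, -0.66 and -0.38) but were not called. Lum went the other way without a call (0.19), at 214 and 296 normalized counts in wild type and 318 and 260 in the knockout.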

How the data were processed

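The authors deposited 1 table of normalized signal per gene, which per the file headers has 2 columns without and 2 with KO in their names. Columns without KO were taken as wild type. The values are read counts divided by a size factor per column, since in each column 100% are whole multiples, to within 0.01 reads, of its smallest value. Dividing by that value recovered reads. Low read numbers were even in 67.3% to 69.4% of cases, so both mates of a fragment were apparently counted. The genome build mm10 and StringTie are named per the submitters' processing notes, without roles. Which aligner, counter and normalizer were used is not stated in the sources. Of 17271 rows, 1 without a gene name was dropped, holding 0.0272% to 0.0366% of a column's total.

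Tests used limma 3.58.1 (trend on mean level) on log2(normalized count + 1), a scale that understates changes of low genes. Genes needed 20 reads in some column. P-values were adjusted by Benjamini-Hochberg, and calls made below 0.05. Residual degrees of freedom were 2, to which limma's prior added 12.2. Log2 ratios are knockout minus wild type. Alternatives were edgeR 4.0.16 and DESeq2 1.42.0 on recovered reads, other scalings, pseudocount and filters, removal of GC and length trends with splines, blocking on column number, and omission of single columns. Where that left a genotype with 1 column, its spread was taken from the other genotype. The limma fit was tested on simulated data. R 4.3.3 and Python 3.11.15 were used. The members, the 7 gene lists and the 7 marker lists were chosen with earlier results of these data known. Genes named were the members, every called list gene, up to 3 others per list with the largest absolute log2 ratio, neighbours and the 3 closest patterns. Jak1, Tyk2, Bcl3, Zfp36, Maf and single markers were named for their roles, after their values were seen. Some genes counted in the lists are not reported here by name.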

Additional observations from a re-analysis of the deposited data

How the results depend on the processing

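No member was called in any of the alternatives that gave it an adjusted p, 13 for Il10ra and Il10rb and 12 for Il10 and Il19, to which DESeq2 gave none. Adjusted p-values ranged from 0.451 to 0.977 for Il10, 0.191 to 0.835 for Il19, 0.178 to 0.926 for Il10ra and 0.204 to 0.763 for Il10rb. With single columns left out the log2 ratio of Il10 ran from -0.19 to 0.096, of Il19 from -1.01 to -0.15, of Il10ra from -0.16 to 0.019 and of Il10rb from 0.081 to 0.15. The sign of Il10ra also turned, to 0.036, once trends with GC and length were removed. That setting gave -0.18 for Il10, -0.71 for Il19 and 0.13 for Il10rb. Its unadjusted limma p was 0.0285 for Il19 and 0.0384 for Il10rb (adjusted p = 0.191 and 0.221). Il19 and Il10rb kept their sign throughout. Ninj1 ran from -3.09 to -2.88 with single columns left out.

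Over all genes, 215 were called higher and 160 lower. DESeq2 called 348 higher and 188 lower, no filter on low values gave 122 higher and 100 lower, and removing the GC and length trend gave 318 higher and 97 lower. With single columns left out the counts ran from 14 to 355 higher and 3 to 265 lower. The block on the column number gave 322 higher and 280 lower. That pairing is not in the labels, and deviations of same-numbered columns correlated at -0.034. The block called no member (adjusted p = 0.900 for Il10, 0.227 for Il19, 0.700 for Il10ra and 0.452 for Il10rb). Under it the unadjusted limma p of Il19 was 0.0370.

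In the lists, the genes raised by interleukin-10 had 2 called lower by DESeq2 or with the replicate block and 0 without a filter or after that trend removal. The regulators had 2 called higher and 1 lower by DESeq2, 4 higher with the trend removed, 0 higher without a filter and 1 lower with the block. With single columns left out, genes called lower among those raised by interleukin-10 numbered 0 to 2, genes called higher among those restrained by it 2 to 9, and regulators 0 to 1 in each direction. The causes were not tested. Depth limits Il19 most, at 76 to 167 reads a column.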
